A study of Mus musculus with 6 samples.

Results

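miR-378a is a hairpin miRNA whose arms, miR-378a-3p (accession MIMAT0003151) and miR-378a-5p (accession MIMAT0000742), were taken from the counts by these accessions. They are 2 of the 707 mature miRNAs counted, and both were among the 633 miRNAs tested. Small RNA was sequenced from the white adipose tissue (WAT) of male ApoE-deficient mice, with 3 libraries from a CIH group and 3 from a control group. All the mice lacked apolipoprotein E, a protein of lipoprotein particles that helps to clear them from the circulation. The comparison therefore concerns CIH on that background and holds no wild-type mice. CIH, chronic intermittent hypoxia, lasted 8 weeks, with the oxygen fraction lowered from 21% to about 6% within 60 s and brought back within 60 s. It models the hypoxia of obstructive sleep apnea. The age of the mice, the fat depot and the exposure of the control group are not given in the sources used here. In GENCODE release M21, Mir378a lies on the minus strand of chromosome 18 of GRCm38 (61397835 to 61397900), in intron 1 of Ppargc1b, which is transcribed in the same direction. The annotation also places a miRNA gene, Gm25301, over it on the plus strand.

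Ppargc1b encodes PGC-1β, a coactivator that raises mitochondrial and fatty acid oxidation genes together with nuclear receptors. Both arms of the hairpin can be loaded into Argonaute proteins and repress mRNAs that pair with their seed, and both have been described as a brake on the oxidative programme that their host gene drives. miR-378a is abundant in muscle and brown fat, rises when preadipocytes become adipocytes, and mice without it resist obesity on a fat-rich diet. The messenger RNA of Ppargc1b was not measured in these libraries.

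The other miR-378 hairpins of the mouse are shown because small RNA reads of such short, similar miRNAs are hard to tell apart. RefSeq gives mature sequences for 3 of them on GRCm38.p6. The source used here held none for miR-378a, so these 3 were compared only with each other. They are printed 5′ to 3′, with the seed (bases 2 to 8) in capitals.
mmu-miR-378b: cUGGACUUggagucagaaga
mmu-miR-378c: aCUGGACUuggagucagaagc
mmu-miR-378d: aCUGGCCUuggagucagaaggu
miR-378b (chr11:88352839-88352858, plus strand) and miR-378c (chr14:46954905-46954925, minus strand) share an unbroken run of 19 bases, which starts at base 1 of the first and base 2 of the second, so that their seeds are shifted by 1 base. From miR-378c to miR-378d (chr10:126710355-126710376, minus strand) the bases differ by A6C and C21G, counted from the 5′ end, and the first of these lies in the seed. The hairpin Mir378b lies within an intron of Msi2 and Mir378c within an intron of Samd4, in both cases on the strand opposite to the gene, and Mir378d lies in no other annotated gene. How the authors assigned reads that match several miRNAs is not given in the sources used here. No other miRNA had the same counts as either miR-378a arm in all 6 libraries. This cannot tell whether part of the reads was shared with another miRNA. Because the counts name miRNAs by accession alone, miR-378b, miR-378c and miR-378d were not identified among them. Any of these 3 with enough counts stayed in the comparisons over all miRNAs.

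The libraries held between 636963 and 4783768 counts and at least 1 count for between 487 and 649 miRNAs. Control 1 and control 2 had the fewest miRNAs detected, 487 and 552, with totals of 1365868 and 4783768. The libraries did not divide by group. Over the 633 miRNAs tested, pairs among control 3, CIH 1, CIH 2 and CIH 3 had correlations of log2 CPM from 0.952 to 0.974, control 1 and control 2 correlated at 0.831, and these 2 correlated with the other 4 libraries at 0.595 to 0.712 (Pearson, across miRNAs, which are not independent replicates). In control 1 and control 2 a set of 23 miRNAs was at or under 3 counts that had at least 100 CPM in each of the other 4 libraries. Of the 204 miRNAs with a mean level of 100 CPM or more, 60 were lower in both of these libraries than in all the others and 40, miR-378a-3p among them, were higher in both. Whether a library carries another group's label, or came from tissue of another makeup, cannot be checked from these files, for control 3 or for control 1 and control 2. Results are therefore given with and without control 3. miRNAs typical of adipocytes, muscle, brown fat or other cells were not analysed here, since no source used here pairs the accessions with names, so the tissue label was not checked against markers.

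miR-378a-3p was high in 2 of the 3 control libraries and lower in the other 4 libraries. It had 14307, 90226 and 547 counts in control 1, 2 and 3, and 4232, 617 and 1123 counts in CIH 1, 2 and 3. TMM normalization adjusts each total for the makeup of the library, and levels are then given as CPM, the counts scaled to a library of the same fixed size. On this scale the level in control 1, 2 and 3 was 18210, 21768 and 493 CPM, and that in CIH 1, 2 and 3 was 3399, 667 and 1218 CPM. Control 1 and control 2 lay above every CIH library, and control 3 lay below every CIH library, so the groups overlapped. The highest library, control 2, had 44.2 times the level of the lowest, control 3. Within the CIH group the highest library had 5.10 times the level of the lowest. Ordered by level, control 2 exceeded control 1 by 1.20-fold, control 1 exceeded CIH 1 by 5.36-fold, CIH 1 exceeded CIH 3 by 2.79-fold, CIH 3 exceeded CIH 2 by 1.83-fold and CIH 2 exceeded control 3 by 1.35-fold. The widest step of this order separated the first 2 control libraries from the rest.

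miR-378a-5p, the scarce arm, followed a similar order at a far lower level. It had 62, 329 and 13 counts in control 1, 2 and 3, and 49, 7 and 23 counts in CIH 1, 2 and 3. On the same scale it stood at 78.9, 79.4 and 11.7 CPM in control 1, 2 and 3, and at 39.4, 7.56 and 24.9 CPM in CIH 1, 2 and 3. Control 1 and control 2 differed by 1.01-fold and were again above every CIH library, while control 3 fell between CIH 2 and CIH 3. The lowest library was CIH 2, and the highest exceeded it by 10.5-fold. In CIH 2 the 7 counts were 0.000949% of the library, with an exact 95% binomial interval of 0.000382% to 0.00196%, which covers counting error only. The sampling of single counts therefore weighs more on this arm than on miR-378a-3p, whose lowest count was 547.

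**Figure D1:**
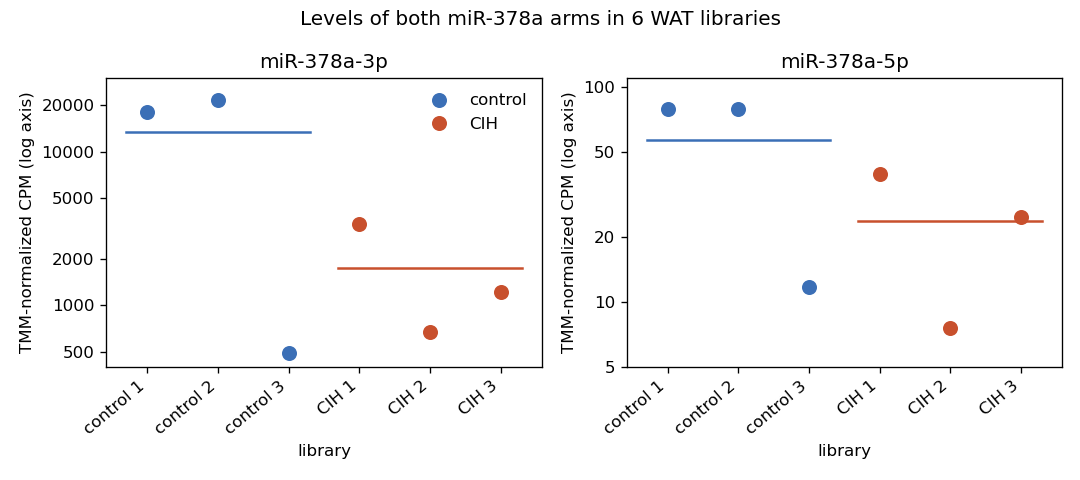
Level of miR-378a-3p (left) and miR-378a-5p (right) in each library as TMM-normalized CPM on a log axis, with a line at each group mean of 3 libraries. Control 1 and control 2 lie above all CIH libraries for both arms, while control 3, at 493 and 11.7, does not.

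Among all miRNAs, miR-378a-3p was near the top in control 1 and control 2 and ranked lower in the other libraries. It ranked 12 and 11 by count in control 1 and control 2, and 92 in control 3. In CIH 1, 2 and 3 it ranked 35, 90 and 65. It took 1.05% and 1.89% of the counts in control 1 and control 2, 0.0690% in control 3, and 0.268%, 0.0837% and 0.176% in CIH 1, 2 and 3. miR-378a-5p ranked 170, 166 and 361 in control 1, 2 and 3, and 257, 404 and 295 in CIH 1, 2 and 3. The SD of log2 CPM over the 6 libraries was 2.37 for miR-378a-3p and 1.33 for miR-378a-5p, against a median of 1.02 over all miRNAs tested. Of the 204 miRNAs that reached a mean level of 100 CPM, 50 varied more than miR-378a-3p.

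**Figure D2:**
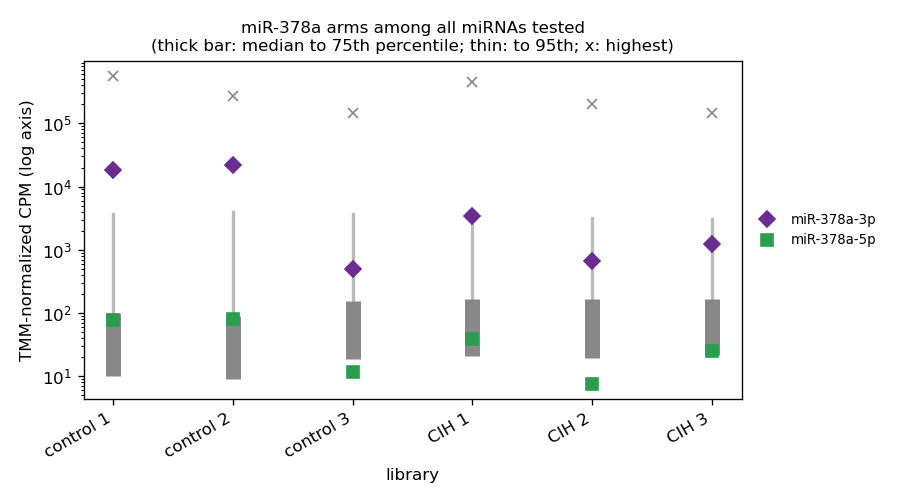
TMM-normalized CPM on a log axis of both arms in each library, over bars that run from the median to the 75th (thick) and 95th (thin) percentile of the 633 miRNAs tested, with a cross at the highest miRNA. miR-378a-3p is above the 95th percentile in control 1 and control 2 and below it in the other 4 libraries.

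The comparison of the groups asks whether CIH changed either arm in WAT. Neither arm passed the test with all 6 libraries. Among controls miR-378a-3p averaged 13490 ± 11396 CPM (SD, n = 3), and under CIH 1761 ± 1445 CPM (SD, n = 3). This gave a log2 fold change of -2.94 with a standard error of 1.39, and the quasi-likelihood test of edgeR gave an adjusted p of 0.882. The unadjusted p-value was 0.0743, and 2.53% of the miRNAs tested, 16 of 633, had one under 0.05. miR-378a-5p averaged 56.7 ± 38.9 CPM (SD, n = 3) among controls and 24.0 ± 15.9 CPM (SD, n = 3) under CIH. This was a log2 fold change of -1.24 with a standard error of 0.94, an adjusted p of 0.882 and an unadjusted p-value of 0.231 in the same edgeR test. No miRNA had an adjusted p under 0.05 (0 of 633, 0%). Groups that did not overlap, with CIH lower, were found for 19 miRNAs (3%), and neither arm was among them. Over all 633 miRNAs the median log2 fold change was 0.07, and 29 and 111 miRNAs had a lower one than miR-378a-3p and miR-378a-5p. In bulk tissue, fewer cells that make a miRNA and less of it per cell cannot be told apart.

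Without control 3 the difference was larger and its error smaller for both arms, and miR-378a-3p passed the test. It then had a log2 fold change of -3.52 with a standard error of 0.82, and an adjusted p of 0.0325 in the quasi-likelihood test of edgeR. After normalizing these 5 libraries alone, its level was 17138 and 20503 CPM in control 1 and 2, and 3163, 625 and 1126 CPM in CIH 1, 2 and 3. For miR-378a-5p the same edgeR test gave a log2 fold change of -1.73 with a standard error of 0.68 and an adjusted p of 0.128. Its level was 74.3 and 74.8 CPM in control 1 and 2, and 36.6, 7.09 and 23.1 CPM in CIH 1, 2 and 3. Neither arm's groups overlapped, as was the case, with CIH lower, for 114 of 614 miRNAs (18.6%). Of the 614 miRNAs tested without control 3, 118 had an adjusted p under 0.05, of which 16 (2.61%) were lower in the CIH group, miR-378a-3p among them, and 102 were higher. With the same 5 libraries, library totals, DESeq2 and limma voom gave an adjusted p of 0.0185, 8.21e-05 and 0.0180 for miR-378a-3p and of 0.341, 0.0857 and 0.104 for miR-378a-5p. Leaving out any other single library gave an adjusted p of at least 0.917 for both arms. Control 3 was singled out after its values were seen. Leaving it out sets control 1 and control 2, with their 23 miRNAs at or under 3 counts, against the CIH libraries alone, and the part of that division of the libraries in the difference of miR-378a was not tested. Should the label or the tissue of control 3, or of control 1 and control 2, differ from what is stated, neither the log2 fold change of -2.94 nor that of -3.52 would measure CIH.

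**Figure D3:**
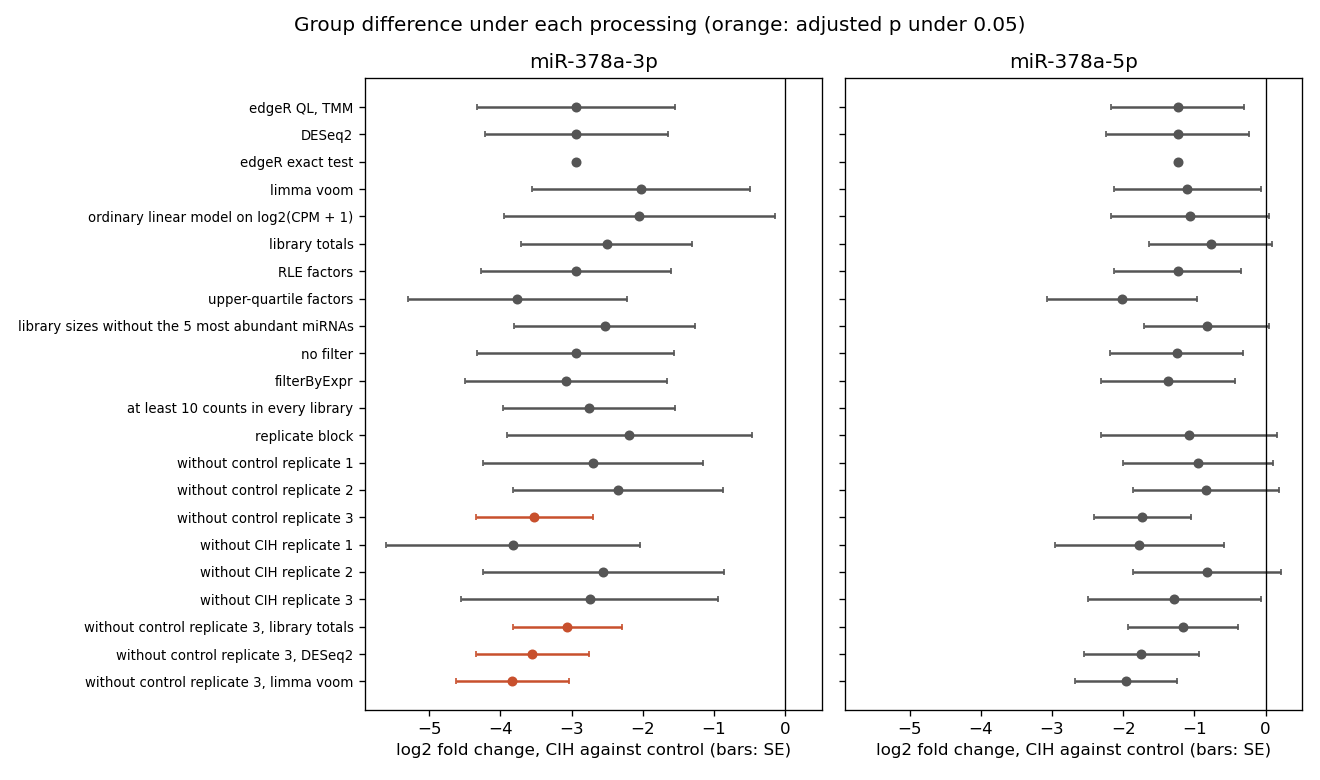
Log2 fold change of CIH against control for each arm under each processing, with standard errors as bars (none for edgeR's exact test) and orange where the adjusted p was under 0.05. All values lie below 0, and the only orange points are those of miR-378a-3p without control 3. miR-378a-5p has no point for the filter of 10 counts in every library, since CIH 2 held 7.

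The arms come from the same hairpin and were read in the same library, so their ratio needs no scaling between libraries. The 3p arm was the dominant product in all 6 libraries. There were 231, 274 and 42.1 counts of miR-378a-3p for each count of miR-378a-5p in control 1, 2 and 3. In CIH 1, 2 and 3 there were 86.4, 88.1 and 48.8. As a share of both arms, miR-378a-5p made up 0.431%, 0.363% and 2.32% in control 1, 2 and 3, and 1.14%, 1.12% and 2.01% in CIH 1, 2 and 3. The exact 95% binomial intervals of control 1 (0.331% to 0.553%) and control 2 (0.325% to 0.405%) overlapped. They lay below those of CIH 1 (0.848% to 1.51%), CIH 3 (1.28% to 3.0%) and control 3 (1.24% to 3.94%). The interval of CIH 2, from 0.452% to 2.3%, was too wide to separate it from control 1 or from CIH 3. Hence the ratio was highest in the control libraries with the most miR-378a-3p and lowest in control 3, the library with the least. The interval of control 3 overlapped that of CIH 3, however. CIH 2, at 88.1, stood above CIH 1, at 86.4, although it had less miR-378a-3p. The count of miR-378a-3p is also the numerator of the ratio, so ratio and level are not independent.

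**Figure D4:**
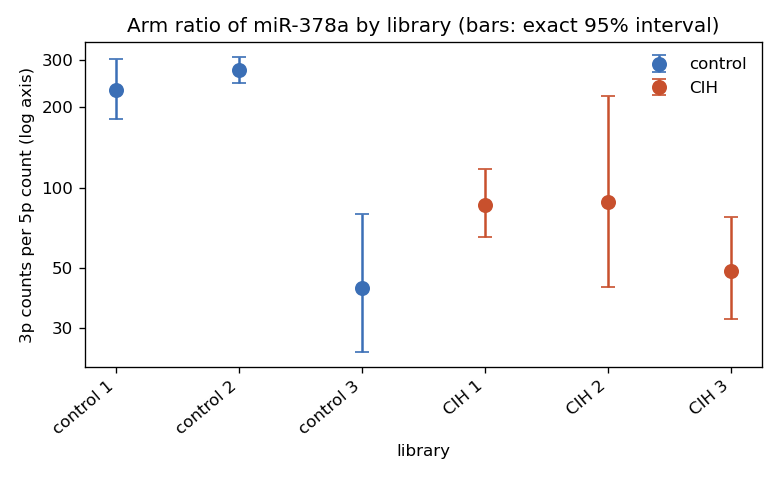
Counts of miR-378a-3p per count of miR-378a-5p in each library on a log axis, with exact 95% binomial intervals for counting error. Control 1 and control 2 stand at 231 and 274, and the other 4 libraries between 42.1 and 88.1.

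With all 6 libraries, the arm ratio differed between the groups by less than the SD of the control libraries. The log2 ratio, with 0.5 added to both counts, averaged 7.09 ± 1.52 (SD, n = 3) among controls and 6.12 ± 0.469 (SD, n = 3) under CIH. The difference, CIH minus control, was -0.97 (two-sided exact permutation test, p = 0.4, where 3 libraries against 3 cannot give less than 0.1). Without control 3 the means were 7.97 ± 0.183 (SD, n = 2) and 6.12 ± 0.469 (SD, n = 3), and the difference of -1.85 was larger than both SDs. All CIH libraries then lay below both control libraries, and the exact permutation test gave p = 0.2, the smallest that 2 against 3 can give, so it cannot pass the threshold. The larger fold change of miR-378a-3p than of miR-378a-5p is the same difference seen arm by arm, and no separate result. The ratios of other hairpins were not analysed here, because pairing their arms needs the names.

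The pattern of miR-378a-3p over the libraries was compared with that of the other 203 miRNAs that reached a mean level of 100 CPM. The other miR-378 miRNAs could not be identified and were not left out, so they may be among the 203. Whether a close miRNA shares reads with miR-378a-3p was not tested. The measure was the root mean square difference of log2 CPM over the 6 libraries after each miRNA's own mean was taken off. The closest was MIMAT0025138, at 0.57, with 1209, 10651 and 119 counts in control 1, 2 and 3, and 849, 126 and 288 in CIH 1, 2 and 3. The next was MIMAT0004661, at 0.74, with 268, 862 and 17 counts in control 1, 2 and 3, and 74, 28 and 30 in CIH 1, 2 and 3. Both had their highest CPM in control 1 and control 2 and their lowest in control 3, as miR-378a-3p did, which largely follows from how they were picked. Their log2 fold changes were -1.90 (standard error 1.19) and -2.20 (standard error 1.07), and the edgeR test gave each an adjusted p of 0.882. The median of the 203 was 2.43. miR-378a-5p, whose mean is below 100 CPM, stood at 1.07, and 4 of the 203 were closer to miR-378a-3p than its own partner arm was. The measure counts the size of the changes as well as their order over the libraries. The SD of log2 CPM was 2.37 for miR-378a-3p and 1.33 for miR-378a-5p, so the distance does not rank likeness of order alone.

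**Figure D5:**
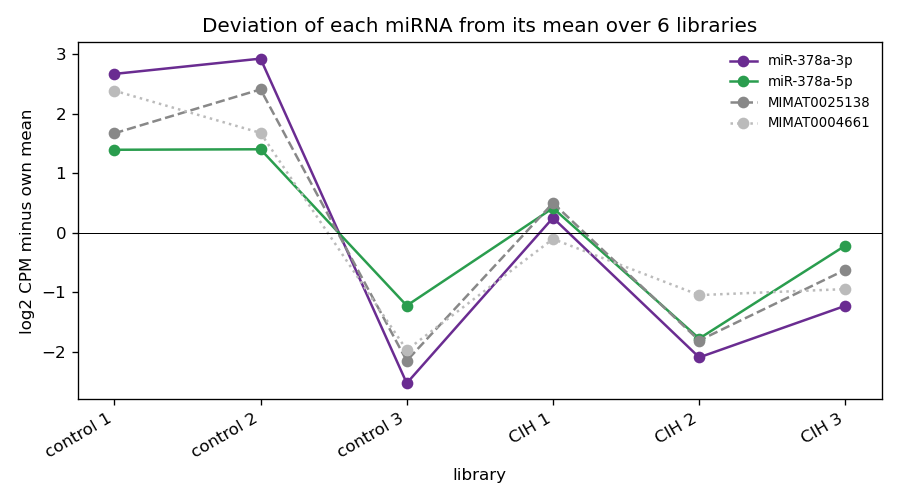
Log2 CPM minus its own mean over the 6 libraries for both arms of miR-378a and for the 2 miRNAs closest to miR-378a-3p, with lines drawn only to guide the eye. All 4 are above their mean in control 1 and control 2 and below it in control 3, CIH 2 and CIH 3.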

How the data were processed

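Small RNA libraries of WAT, 3 of the CIH group and 3 of the control group, were analysed. The authors deposited raw read counts per mature miRNA accession, with no normalization. Their trimming, alignment and miRNA release are not given in the sources used here. Groups and columns came from the sample labels. No 2 libraries agreed within counting noise, and each counted as 1 replicate. The labels do not name an animal for each library, so p-values measure the spread between these libraries.

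The miRNAs whose counts over the 6 libraries reached a sum of 10 were fitted together with edgeR 4.0.16 under R 4.3.3. Its quasi-likelihood test was used with TMM factors and no covariate beside the group, and p-values were adjusted by Benjamini-Hochberg. The fit was first run on simulated counts, where recovery of the known changes was required only at the smaller simulated spread. How it performs at the spread of these libraries is not given here. Log2 CPM used a prior count of 2. Alternatives were DESeq2 1.42.0, limma 3.58.1 with voom, edgeR's exact test, an ordinary linear model, 4 other scalings, 3 other filters, a replicate block and fits without each library. Arm ratios and exact tests used Python 3.11.15 with scipy 1.17.1. Named were both arms, the other miR-378 miRNAs and the miRNAs most like miR-378a-3p. Of the 5 most alike that were planned, only the 2 closest are given. The third was nearly as close as the second, at 0.745 against 0.737. The members, lists and alternatives were chosen with earlier results of these data known.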

Additional observations from a re-analysis of the deposited data

How the results depend on the processing

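Both arms had a lower level in the CIH group under each alternative that tested them (21 for miR-378a-3p, 20 for miR-378a-5p), and the arm ratio was lower in all 10 of its alternatives. Every alternative kept control 1, control 2 or both, which lay above all CIH libraries, so this shared direction was largely set beforehand. None set control 3 alone against the CIH group. Over the 6 fits that each dropped a library, the number of miRNAs with an adjusted p under 0.05 ran from 0 to 118, and the log2 fold change of miR-378a-3p from -3.83 without CIH 1 to -2.35 without control 2. Its call rested on leaving out control 3 (-3.52). In the settings added after seeing the data, which also left out control 3, the number of miRNAs was 119 with library totals, 173 with DESeq2 and 134 with limma voom, and the log2 fold change of miR-378a-3p was -3.06, -3.55 and -3.83. The median log2 fold change over the miRNAs tested was -0.52 under upper-quartile factors and 0.33 under library totals, and the log2 fold changes were then -3.76 and -2.51 for miR-378a-3p and -2.01 and -0.77 for miR-378a-5p. The highest library exceeded the lowest by 27.3-fold to 76.7-fold for miR-378a-3p over the 5 scalings, and control 3 was the lowest in each.

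Deviations of same-numbered libraries correlated at 0.353 for replicate 1, -0.116 for replicate 2 and 0.0195 for replicate 3. No pairing common to every replicate number was found. Whether control 1 and CIH 1 share a feature behind the value of 0.353 was not tested. In the fit with a replicate block, 0 miRNAs had an adjusted p under 0.05 in edgeR's test (3 at an unadjusted p under 0.05, against 16 without the block), and the log2 fold changes were -2.19 and -1.07. The filter of 10 counts in every library left no value for miR-378a-5p. The ratios of all hairpins and the marker lists were not run, because no source used here pairs accessions with names. Counts down to 7 limit what can be said of miR-378a-5p and of the arm ratio in CIH 2.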
